A study of Mus musculus with 9 samples.

Results

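A set of 10 glucocorticoid-responsive genes was followed across all 9 RNA sequencing libraries of a mouse bile duct organoid experiment in which every culture received dexamethasone, a synthetic glucocorticoid. The genes were Tsc22d3, Fkbp5, Per1, Zbtb16, Sgk1, Klf9, Dusp1, Mt1, Mt2 and Tat. They were taken by name from the gene name column of the deposited count files, and all 10 of the 10 names matched 1 gene each among the 32137 genes listed. All but Tat, 9 genes, passed the filter on low counts and stood among the 17011 genes tested.

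Glucocorticoids diffuse into cells and bind the glucocorticoid receptor (Nr3c1), which the chaperone Hsp90 and its partners hold in the cytoplasm. The hormone-bound receptor moves to the nucleus and binds DNA as a dimer at palindromic glucocorticoid response elements, or acts through other factors bound nearby. Among its textbook targets are Fkbp5, which feeds back on the receptor, Tsc22d3 (GILZ) and Dusp1, which carry part of the anti-inflammatory action, and the clock gene Per1. In liver, hepatocytes are the classical site of the response, with Tat as the textbook inducible enzyme.

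All 9 libraries came from differentiated organoids that started from 1 male animal of mixed genetic background and of the genotype Axin2CreERT2+/-; R26-LSL-tdTom+/-. Axin2 is a Wnt target gene, and its promoter drives a tamoxifen-activated Cre that turns on the red reporter tdTomato for good, so the reporter records earlier Axin2 expression. Expansion lasted 2 to 4 days and was followed by 11 days of differentiation. For the last 24 h every culture held 3 uM dexamethasone and 500 nM 4-OHT (4-hydroxytamoxifen), and the treated cultures also held R-spondin 1 (Rspo1), a secreted amplifier of Wnt signalling, at 100 ng/ml. The untreated group held tdTomato-negative cells without Rspo1, the Rspo1-negative group tdTomato-negative cells with Rspo1, and the Rspo1-positive group tdTomato-positive cells with Rspo1, sorted after a 7 min enzyme digestion. Each group has 1 library from each of passages 5, 6 and 10 of organoids from that animal. No library without dexamethasone was analysed here, so the values below are levels under the drug and not responses to it. The labels do not say whether the passages are independent cultures, so p-values measure only the spread between these libraries, which may be partly technical. In sorted bulk samples a change in the share of cells that express a gene and a change in RNA per cell cannot be told apart.

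Total counts ran from 23423979 to 37351448 per library. Axin2 averaged 3.01 CPM (a library's counts scaled to a common total, adjusted by edgeR's TMM method) in the untreated group, against 88.7 in Rspo1-negative and 106 in Rspo1-positive cells. The labelled tissue was checked against markers, and 14 of 14 duct markers passed the filter on low counts. Their summed level was 12451 to 18126 CPM, against 366 to 814 CPM for 17 hepatocyte markers. Of the 17 hepatocyte markers 9 passed the filter, while Cps1, Cyp3a11 and Hpd had at most 3 counts in each library. Of 17 mesenchymal, endothelial and immune markers, 13 were in the files, with a summed level of 5.96 to 23.5 CPM, and 2 passed the filter. Cdh5, Col1a2, Des, Lum and Pdgfra had at most 3 counts in each library. Counts on 3 genes that collect ribosomal RNA (CT010467.1, Gm42418 and AY036118) made up 0.499% to 2.38% of each passage 5 library, 5.37% to 20.9% of each passage 6 library and 1.66% to 10.1% of each passage 10 library.

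Levels can be compared between genes only per length, in the deposited FPKM values. By mean FPKM over the 9 libraries the order was Fkbp5 (102), Mt1 (82.5), Mt2 (70.3), Tsc22d3 (64.1), Sgk1 (57.1), Dusp1 (40.5), Per1 (24.7), Klf9 (7.42), Zbtb16 (1.55) and Tat (0.0190). Fkbp5 stood above 96.5% of the genes tested and Zbtb16 above 27.5%. Reads of Mt2 cannot be told apart from those of an overlapping antisense gene, described below, so its place in the order is uncertain. Neighbours from Fkbp5 down to Per1 overlapped in their ranges over the libraries, so neighbours among those 7 genes cannot be ordered. Fkbp5, Mt1 and Tsc22d3 each lay wholly above Per1. Klf9 lay wholly below Per1, at 4.48 to 9.36 against 18.9 to 35.2 FPKM, and Zbtb16 lay wholly below Klf9, at 0.324 to 3.04 FPKM. Tat (chromosome 8, 109990437 to 109999803, plus strand), tyrosine aminotransferase, had 13 counts in all 9 libraries together and at most 4 in 1 library. A floor of 3 counts corresponds to 0.0803 to 0.128 CPM here and covers counting error only, so no fold between groups is given for Tat.

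**Figure D1:**
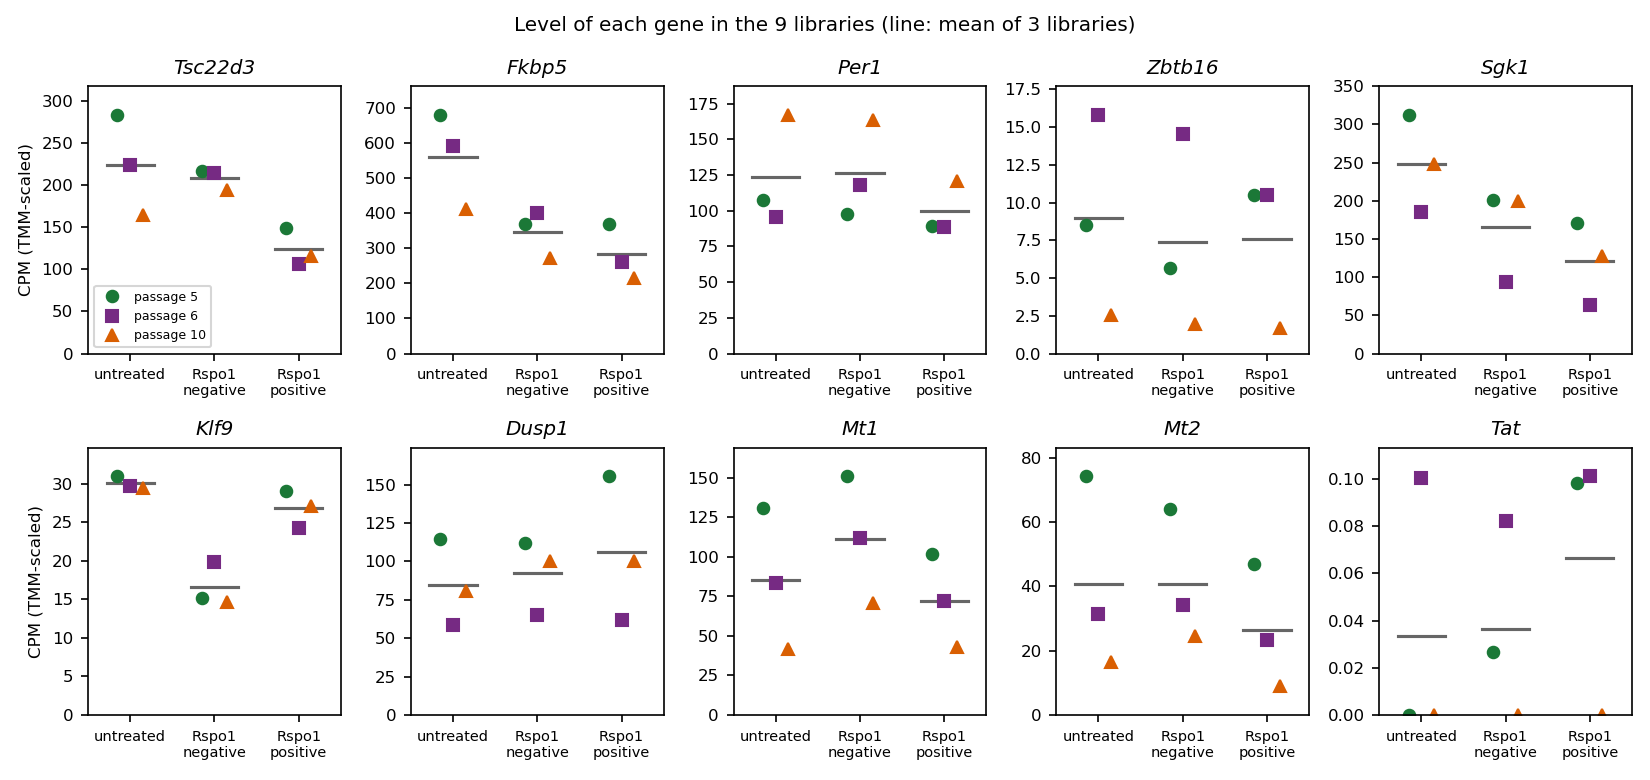
Level of each of the 10 genes (vertical axis, TMM-scaled CPM, starting at 0) in the 3 groups. Each point is 1 library, its shape and colour give the passage, and the line is the mean of 3 libraries. Tsc22d3 sits lowest in the Rspo1-positive group and Klf9 in the Rspo1-negative group, while Zbtb16, Mt1 and Mt2 sit lowest at passage 10 in every group.

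Upstream sequences were read from RefSeq (build GRCm38.p6) for 9 of the 10 genes, as the 250 bases before each annotated start, 17 windows in all. They were searched on both strands for elements that bind the glucocorticoid receptor or the other inputs these genes are known for. The 6 windows printed were chosen because they hold matches, and they are given in gene orientation, 5′ to 3′. Matches are in capitals, and positions are counted backwards from the start, where -1 is the base before it.
Sgk1, chr10:21993640-21993889, plus strand: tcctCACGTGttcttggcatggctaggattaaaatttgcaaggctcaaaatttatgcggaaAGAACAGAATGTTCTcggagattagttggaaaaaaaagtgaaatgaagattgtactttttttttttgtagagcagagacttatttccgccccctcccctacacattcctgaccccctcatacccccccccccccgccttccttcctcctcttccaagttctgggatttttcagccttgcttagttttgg
Mt1, chr8:94178839-94179088, plus strand: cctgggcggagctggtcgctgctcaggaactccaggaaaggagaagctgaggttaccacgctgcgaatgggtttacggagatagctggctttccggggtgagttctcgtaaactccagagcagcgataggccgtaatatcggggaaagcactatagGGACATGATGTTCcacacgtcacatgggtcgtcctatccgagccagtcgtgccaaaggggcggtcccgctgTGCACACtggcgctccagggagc
Mt2, chr8:94172368-94172617, plus strand: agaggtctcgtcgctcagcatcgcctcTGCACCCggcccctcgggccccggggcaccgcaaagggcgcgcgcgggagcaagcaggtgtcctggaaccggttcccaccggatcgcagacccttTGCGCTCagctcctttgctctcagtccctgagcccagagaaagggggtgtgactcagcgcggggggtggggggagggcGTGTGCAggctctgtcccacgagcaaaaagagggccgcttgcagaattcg
Fkbp5, chr17:28486150-28486399, minus strand: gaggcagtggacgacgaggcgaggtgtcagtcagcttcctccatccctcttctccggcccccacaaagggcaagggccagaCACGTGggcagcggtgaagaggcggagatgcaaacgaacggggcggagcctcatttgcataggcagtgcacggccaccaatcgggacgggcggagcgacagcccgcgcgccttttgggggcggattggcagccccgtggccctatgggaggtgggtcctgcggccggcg
Dusp1, chr17:26508473-26508722, minus strand: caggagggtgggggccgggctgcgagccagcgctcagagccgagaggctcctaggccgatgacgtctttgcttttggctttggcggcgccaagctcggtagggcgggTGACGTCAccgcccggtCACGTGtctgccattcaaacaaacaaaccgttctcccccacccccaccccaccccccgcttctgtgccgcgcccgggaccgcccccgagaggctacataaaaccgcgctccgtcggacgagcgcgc
Per1, chr11:69098699-69098948, plus strand: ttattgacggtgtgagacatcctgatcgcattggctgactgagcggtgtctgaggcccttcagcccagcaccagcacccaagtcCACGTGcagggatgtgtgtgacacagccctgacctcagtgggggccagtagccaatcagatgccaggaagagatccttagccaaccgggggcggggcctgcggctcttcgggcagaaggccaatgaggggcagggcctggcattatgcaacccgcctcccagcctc
The other Sgk1 windows, and all windows of Tsc22d3, Klf9 and Tat, hold no match to any element searched. The printed Sgk1 window holds the full palindromic glucocorticoid response element at -189 to -175, searched as AGAACA and its inverted copy with 3 bases between. Of the 32851 RefSeq windows of this length, 3 hold it (0.00913%). Mt1 holds the looser core of it, GNACA and its inverted copy with 3 bases between, at -94 to -82. That core occurs in 0.387% of windows, and the Sgk1 element contains it. The metal response element that binds the zinc sensor Mtf1, searched as TGCACNC or TGCGCNC, occurs in 21.4% of windows, once in the Mt1 window, 3 times in the Mt2 window and once in another Per1 window, chr11:69099902-69100151, at -69 to -63. A clock E-box, CACGTG, present in 6.02% of windows, lies in the Sgk1, Fkbp5, Dusp1 and Per1 windows. Dusp1 also holds the cyclic AMP response element TGACGTCA, which 1.55% of windows hold, at -143 to -136. A match is a run of letters, not a measured binding site, and receptor sites of these genes can lie far outside such windows.

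The receptors themselves were measured first. Nr3c1, the glucocorticoid receptor, was at 63.4, 63.2 and 44.4 CPM at passages 5, 6 and 10 in the untreated group, at 52.8, 42.9 and 49.7 CPM in Rspo1-positive cells and at 28.7, 30.9 and 20.4 CPM in Rspo1-negative cells. All 3 Rspo1-negative libraries lay below all 6 others. The share of all genes tested whose libraries separate in such a way is not given here. Separation of libraries, here and below, is therefore a description and is not read as particular to a gene. Differences were tested with edgeR (quasi-likelihood F-test, p-values corrected by Benjamini-Hochberg across all genes tested). In log2 fold change, Nr3c1 stood at -1.09 (SE 0.19, adjusted p = 0.00391) when Rspo1-negative cells were set against the untreated group. Between the tdTomato gates of Rspo1-treated organoids it was higher in the positive gate, by 0.86 (SE 0.19, adjusted p = 0.0108), a call lost without the Rspo1-negative library of passage 10 (adjusted p = 0.0526). An offset for transcript GC content and length was fitted next, and these values became -0.35 (adjusted p = 0.210) and 0.04 (adjusted p = 0.896), so both calls ended. The GC content of the Nr3c1 transcript is 42.2%.

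Nr3c2, the mineralocorticoid receptor, which also binds glucocorticoids, was at 12.2, 16.4 and 21.6 CPM in the untreated group, 8.73, 8.44 and 11.4 CPM in Rspo1-negative and 11.1, 10.2 and 12.2 CPM in Rspo1-positive cells. The untreated libraries were the highest of each passage. Rspo1-negative cells were lower than the untreated group, at -0.82 (edgeR, adjusted p = 0.0267), and this ended with the offset (-0.45, adjusted p = 0.246) and in a fit of the 6 libraries compared (-0.82, adjusted p = 0.0588). It also ended without Rspo1-negative passage 5 (adjusted p = 0.0893), Rspo1-negative passage 6 (0.0719) or untreated passage 10 (0.0897). In Rspo1-positive relative to untreated cells Nr3c2 was at -0.59 (adjusted p = 0.191), and called with passage in the model (-0.56, adjusted p = 0.0413). Hsd11b1, the enzyme that regenerates active glucocorticoid from its inert form, had 0 to 3 counts per library, and Hsd11b2, which inactivates natural glucocorticoids, had 28 to 55.

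Rspo1-positive and untreated cells differ in both Rspo1 treatment and sorting gate. Fkbp5 and Tsc22d3 were the members that fell, each to between 0.504 and 0.551 times the untreated level. These 2 of 9 members tested stand beside 5.21% of all genes tested (886 of 17011), or 2.13% when only lower genes are counted. With passage as a block in the model, which pairs libraries of the same passage, 4 of 9 were lower, beside 13.2% of all genes in either direction and 6.77% lower: Sgk1 and Mt2 joined them. The 3 comparisons between groups share libraries, so they are not independent of each other.

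Fkbp5 (chromosome 17, 28399094 to 28517527, minus strand) encodes an immunophilin that binds Hsp90 in the receptor complex and lowers the receptor's affinity for hormone. Its level was 680, 591 and 411 CPM at passages 5, 6 and 10 in the untreated group, 368, 401 and 273 CPM in Rspo1-negative cells and 369, 262 and 216 CPM in Rspo1-positive cells. Every untreated library lay above every library that had received Rspo1, and the Rspo1 groups overlapped. Its change in the Rspo1-positive gate relative to untreated cells was -0.99 on the log2 scale (edgeR, SE 0.25, adjusted p = 0.0456), and -0.99 (SE 0.14, adjusted p = 0.000879) with passage in the model. The call without the block was lost when untreated passage 5 (adjusted p = 0.151), untreated passage 6 (0.107), Rspo1-positive passage 6 (0.198) or Rspo1-positive passage 10 (0.162) was left out. It was also lost in a fit of the 6 libraries compared (-0.98, adjusted p = 0.0863) and with upper-quartile scaling (-0.96, adjusted p = 0.0536).

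For Rspo1-negative against untreated cells, Fkbp5 was -0.69 (SE 0.25, adjusted p = 0.0690 by edgeR), which missed the threshold, and -0.67 (SE 0.14, adjusted p = 0.00476) with the block, which passed it. All 3 passages gave a lower value with Rspo1, by 0.56 to 0.88 on the log2 scale. Between the gates of the Rspo1-treated organoids the difference was -0.30 (SE 0.25, adjusted p = 0.408), and its direction was not shared by all passages, since the passage 5 libraries had nearly the same level.

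Tsc22d3 (chromosome X, 140539528 to 140600659, minus strand) encodes GILZ, a leucine zipper protein that binds NF-kappa-B and AP-1. It was at 284, 224 and 165 CPM in the untreated group, 217, 214 and 194 CPM in Rspo1-negative cells and 149, 106 and 116 CPM in Rspo1-positive cells. All 3 Rspo1-positive libraries lay below all 6 tdTomato-negative ones, while the tdTomato-negative groups overlapped. On the log2 scale Rspo1-positive cells were at -0.86 relative to untreated cells (edgeR, SE 0.20, adjusted p = 0.0336) and at -0.75 relative to Rspo1-negative cells (SE 0.20, adjusted p = 0.0215). Rspo1-negative and untreated cells differed by -0.11 (SE 0.20, adjusted p = 0.741). The first call was lost without untreated passage 5 (adjusted p = 0.119), untreated passage 6 (0.0750), Rspo1-positive passage 6 (0.173) or Rspo1-positive passage 10 (0.125), and in a fit of the 6 libraries compared (-0.85, adjusted p = 0.0817). The second was lost without Rspo1-negative passage 5 (adjusted p = 0.0663), Rspo1-positive passage 6 (0.0880) or Rspo1-positive passage 10 (0.0742). With the block both held in the 9 libraries (adjusted p = 0.00302 and 0.00266).

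Sgk1 (chromosome 10, 21882184 to 21999903, plus strand), the serum- and glucocorticoid-regulated kinase, acts downstream of PI3K on ion channels and transporters. Its level was 313, 185 and 248 CPM in the untreated group, 201, 93.9 and 200 CPM in Rspo1-negative cells and 171, 63.3 and 127 CPM in Rspo1-positive cells. At each passage the untreated library was the highest and the Rspo1-positive one the lowest, and the passage 6 library was the lowest of each group. Without passage in the model no pair of groups passed the test, with -1.04 (SE 0.37, adjusted p = 0.163 by edgeR) for Rspo1-positive against untreated. With it the values were -1.13 (SE 0.16, adjusted p = 0.000638), -0.65 (SE 0.16, adjusted p = 0.00859) for Rspo1-negative against untreated and -0.48 (SE 0.16, adjusted p = 0.0305) between the Rspo1 gates.

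**Figure D2:**
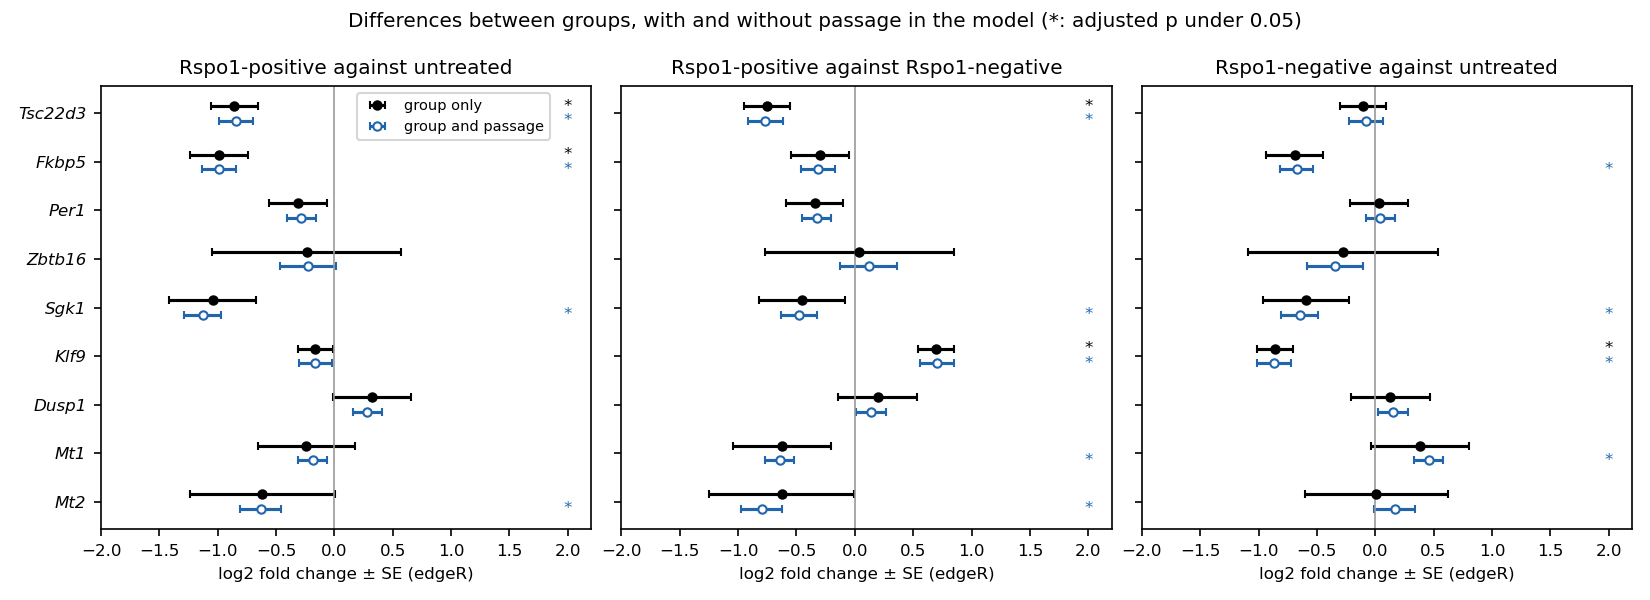
Log2 fold change (horizontal axis, edgeR, with bars of 1 SE) of the 9 genes tested in the 3 comparisons between groups. Filled black circles are from the model with group only and open blue circles from the model with group and passage, and an asterisk in the same colour marks an adjusted p under 0.05. Sgk1 in the first panel is at -1.04 without and -1.13 with passage, with an SE of 0.37 and 0.16.

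Between the Rspo1-positive and Rspo1-negative gates, Tsc22d3 was lower and Klf9 higher, and the other 7 members did not pass the test. These 2 of 9 compare with 24.3% of all genes tested, so the share is near the background. With the block 5 of 9 were called, beside 38.9% of all genes. Sgk1, Mt1 (-0.64, adjusted p = 0.00280 by edgeR) and Mt2 (-0.80, adjusted p = 0.00540) were lower as well. The GC and length offset, joined to the block, made Mt1 (-0.38, adjusted p = 0.0420) and Mt2 (-0.53, adjusted p = 0.0484) smaller. Sgk1 was then at -0.52 (adjusted p = 0.0307), slightly larger than with the block alone. These 3 calls were kept, those of Mt1 and Mt2 close to the threshold.

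Klf9 (chromosome 19, 23141226 to 23168134, plus strand) encodes a zinc finger repressor induced by glucocorticoids and thyroid hormone. It was at 31.0, 29.7 and 29.4 CPM in the untreated group, 29.0, 24.3 and 27.1 CPM in Rspo1-positive cells and 15.1, 19.8 and 14.7 CPM in Rspo1-negative cells. The untreated libraries were nearly equal, and all 3 Rspo1-negative libraries lay below all 6 others. It fell in Rspo1-negative against untreated cells by -0.86 on the log2 scale (SE 0.15, adjusted p = 0.00419 by edgeR), and no alternative run ended that call. The positive gate was above the negative gate by 0.70 (SE 0.15, adjusted p = 0.0103). That second call ended once GC content and length were offset (0.42, adjusted p = 0.0764), was kept with the offset and block together (0.42, adjusted p = 0.0317), and ended without Rspo1-negative passage 10 (0.57, adjusted p = 0.0540).

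Klf9 in Rspo1-negative against untreated cells was the 1 member of 9 called, beside 21.9% of all genes tested, and with the block 4 of 9 were called, beside 35.5%. The block added Fkbp5 and Sgk1, both lower, and Mt1, which was higher by 0.46 (SE 0.13, adjusted p = 0.0156 by edgeR). For Mt1 the block with the offset gave 0.20 (adjusted p = 0.259), which ended that call.

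Passages were compared next. Each passage holds 1 library of each group, and group was kept in the model. The libraries of a passage are not repeats of that passage. Passage number therefore cannot be told apart from anything else the libraries of 1 passage share. The p-values below do not measure the spread between repeats of a passage. Sgk1, Dusp1 and Mt2 fell from passage 5 to passage 6, 3 of 9 members beside 2.49% of all genes tested (1.33% lower). At passage 10 against passage 5, Mt1, Mt2, Zbtb16 and Fkbp5 fell and Per1 rose, 5 of 9 beside 9.07% (4.50% lower and 4.57% higher). The members were chosen with earlier results of these data known, so these shares describe the list and do not test it.

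Mt1 (chromosome 8, 94179082 to 94180327, plus strand) and Mt2 (chromosome 8, 94172664 to 94173568, plus strand) are neighbouring genes for metallothioneins, small cysteine-rich proteins that bind zinc and copper. Mt1 was at 131, 83.3 and 41.9 CPM at passages 5, 6 and 10 in the untreated group, 151, 112 and 71.1 CPM in Rspo1-negative cells and 102, 72.2 and 43.0 CPM in Rspo1-positive cells. Mt2 was at 74.3, 31.3 and 16.5 CPM, 63.9, 34.2 and 24.4 CPM, and 46.9, 23.4 and 9.09 CPM in the same order. In each group both genes were highest at passage 5 and lowest at passage 10, and the passage 5 and passage 10 libraries did not overlap. The fall from passage 5 to 10 was -1.32 on the log2 scale (SE 0.13) for Mt1 and -1.96 (SE 0.18) for Mt2, each with an adjusted p of 0.000316 by edgeR, and both calls held in each of the 9 fits that left out 1 library.

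Mt2 fell from passage 5 to 6 by -1.06 (SE 0.17, adjusted p = 0.0110 by edgeR), a call lost without the passage 5 library of the untreated group (adjusted p = 0.0765) or of Rspo1-positive cells (0.0639). Mt1 was at -0.53 (adjusted p = 0.0525), under the threshold with the offset (adjusted p = 0.0473). Mt2 fell further than Mt1: the ratio of Mt1 to Mt2 in FPKM was 0.831 to 1.11 at passage 5, 1.25 to 1.54 at passage 6 and 1.20 to 2.23 at passage 10. Mt2 shares 73.5% of its exon bases with the antisense gene Gm45774, whose count was 69.7% to 78.5% of the Mt2 count. The strand setting of the counting is not given in the sources used here, so reads of these 2 genes cannot be told apart. Mt1 has no such overlap.

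Zbtb16 (chromosome 9, 48654297 to 48836222, minus strand) encodes PLZF, a zinc finger repressor that is a sensitive glucocorticoid target in many cell types. It was at 8.52, 15.8 and 2.53 CPM at passages 5, 6 and 10 in the untreated group, 5.64, 14.6 and 1.95 CPM in Rspo1-negative cells and 10.5, 10.5 and 1.71 CPM in Rspo1-positive cells. The passage 10 libraries, with 46 to 88 counts each, lay below all others. Zbtb16 fell from passage 5 to 10 by -2.002 (SE 0.26, adjusted p = 0.00136 by edgeR), to 0.250 times the passage 5 level, and held this call in all 9 fits without 1 library. From passage 5 to 6 it was at 0.73 (SE 0.23, adjusted p = 0.142).

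Dusp1 (chromosome 17, 26505590 to 26562128, minus strand) encodes a phosphatase that switches off p38, JNK and ERK, and it is induced by stress and growth factors as well as by glucocorticoids. Its level was 115, 58.3 and 81.0 CPM at passages 5, 6 and 10 in the untreated group, 112, 64.9 and 101 CPM in Rspo1-negative cells and 156, 62.1 and 100 CPM in Rspo1-positive cells. The passage 6 library was the lowest and the passage 5 library the highest of each group, and the groups overlapped. It fell from passage 5 to 6 by -1.03 (SE 0.13, adjusted p = 0.00273 by edgeR). Sgk1 fell by -1.09 (SE 0.16, adjusted p = 0.00583) over the same step, and from passage 5 to 10 it was at -0.26 (adjusted p = 0.317). Dusp1 from passage 5 to 10 was at -0.44 (adjusted p = 0.0568) and passed with the offset (-0.49, adjusted p = 0.0303). The share of counts on ribosomal RNA genes also rose from passage 5 to 6 in each group, and its part in these results was not tested.

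Fkbp5 fell from passage 5 to 10 by -0.65 (SE 0.14, adjusted p = 0.0198 by edgeR), lower at passage 10 in all 3 groups. This call was lost without the passage 5 library of the untreated group (adjusted p = 0.103) or of Rspo1-positive cells (0.119), and without the passage 10 library of the untreated (0.0820), Rspo1-positive (0.0812) or Rspo1-negative group (0.0632). Tsc22d3 was also lower at passage 10 in all 3 groups, at -0.44 (SE 0.15, adjusted p = 0.0852). Klf9 was at -0.07 (SE 0.14, adjusted p = 0.793).

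Per1 (chromosome 11, 69095217 to 69109960, plus strand) encodes a repressor of the circadian clock and was the member called higher at passage 10 against passage 5. It was at 107, 95.8 and 167 CPM at passages 5, 6 and 10 in the untreated group, 97.5, 118 and 164 CPM in Rspo1-negative cells and 88.9, 88.5 and 121 CPM in Rspo1-positive cells. The passage 10 library was the highest of each group. Passage 10 was above passage 5 by 0.61 on the log2 scale (edgeR, SE 0.12, adjusted p = 0.0135). The call was lost without any 1 of the passage 5 libraries (untreated, adjusted p = 0.0617, Rspo1-positive, 0.0510, and Rspo1-negative, 0.108). It was also lost without the passage 10 library of the untreated (0.0680) or Rspo1-negative group (0.0691).

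**Figure D3:**
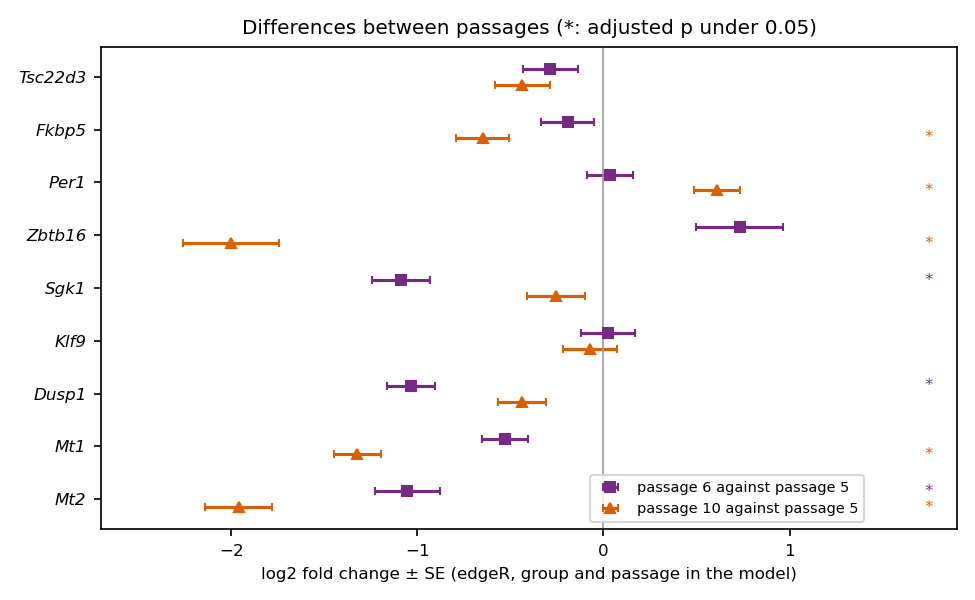
Log2 fold change (horizontal axis, edgeR with group and passage in the model, with bars of 1 SE) of the 9 genes tested, for passage 6 (purple squares) and passage 10 (orange triangles) against passage 5, with an asterisk in the same colour where the adjusted p is under 0.05. Zbtb16 is at 0.73 for passage 6 and at -2.002 for passage 10, and Klf9 lies near 0 in both.

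The split of each gene's variation over the 9 libraries set the members apart from each other. Group accounted for 89.7% of the sum of squares of log2 CPM for Klf9, 74.1% for Tsc22d3 and 67.1% for Fkbp5. Passage accounted for 93.8% for Zbtb16, 88.2% for Dusp1, 80.5% for Mt2, 78.2% for Mt1 and 72.9% for Per1. Sgk1 was divided almost evenly, with 47.0% for group and 48.2% for passage. Over all genes tested the medians were 52.2% for group and 21.5% for passage. These shares describe the libraries and carry no test. They were computed without the GC and length offset, which made the group differences of Klf9 and Nr3c1 smaller, as given above.

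**Figure D4:**
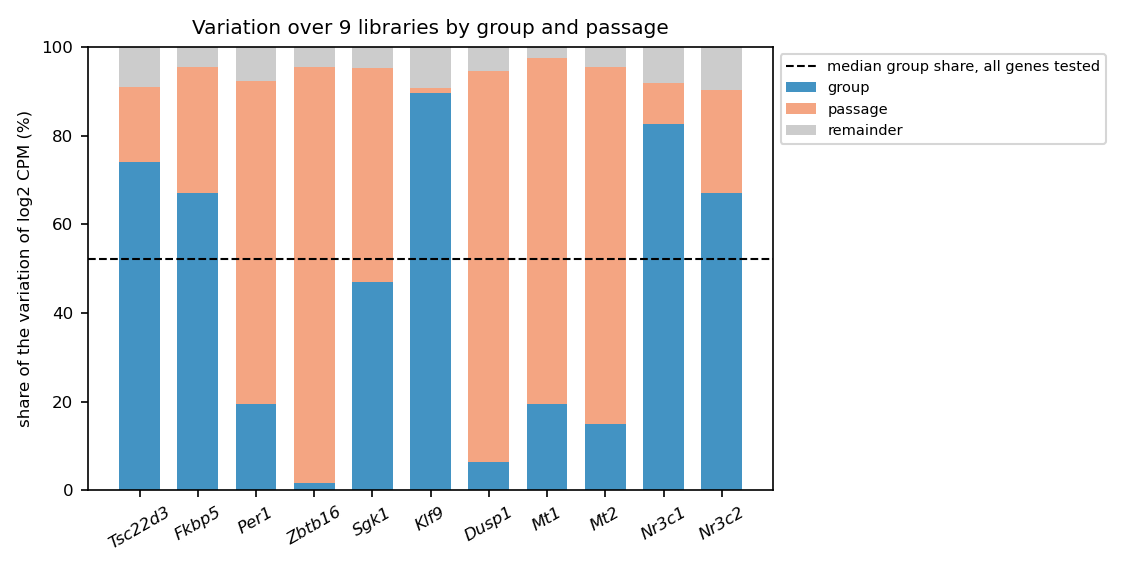
Share of the sum of squares of log2 CPM over 9 libraries (vertical axis, percent) that goes with group (blue), passage (orange) and the remainder (grey), for the 9 genes tested and the receptors Nr3c1 and Nr3c2. The dashed line is the median group share of all genes tested (52.2%), which Klf9, Tsc22d3, Fkbp5 and both receptors exceed. The values carry no offset for GC content and length.

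The accounts of gene lists that follow print part of the genes the naming rule picked, chosen after their values were seen and leaning to those that kept their call. Over the 6 lists the rule picked 83 pairs of a gene and a comparison. When libraries were left out in turn, 41 of the 83 lost their call at least once, and 29 of the 51 pairs between groups ended with the GC and length offset, against 1 of the 32 between passages. Offset values are printed for part of the genes only. A group call printed without one may or may not hold with the offset. The list counts below are to be read against the shares of all genes tested that were called: 5.21% in Rspo1-positive against untreated cells (13.2% with the block), 24.3% between the Rspo1 gates (38.9%), 21.9% in Rspo1-negative against untreated cells (35.5%), 2.49% at passage 6 and 9.07% at passage 10. Nothing in these counts was tested as particular to a list.

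Per1 was set beside 19 tested genes of the circadian clock. At passage 10 against passage 5, 5 rose and 1 fell, beside 4.57% of all genes tested higher and 4.50% lower. Dbp, an output factor of the clock, went from 17.8 ± 5.49 to 45.1 ± 17.8 CPM (SD, n = 3), up by 1.30 on the log2 scale (edgeR, SE 0.14, adjusted p = 0.000516). Nr1d1, the repressor REV-ERB-alpha, rose by 0.86 (SE 0.13, adjusted p = 0.00303). Both calls held in all 9 fits without 1 library. The repressor Ciart rose by 0.75 (adjusted p = 0.0204), a call lost without any 1 library of passage 5 or 10 (adjusted p from 0.0646 to 0.121). Nfil3, which opposes Dbp at its sites, fell by -0.71 (adjusted p = 0.0117), lost without untreated passage 5 (0.0798), Rspo1-negative passage 5 (0.0586) or untreated passage 10 (0.0629). The median of the 19 genes was 0.31, against 0.01 for all genes tested.

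From passage 5 to 6, when Per1 was at 0.04 (adjusted p = 0.928), 1 of the 19 rose and 3 fell, beside 2.49% of all genes called. Cry1, a partner of the Per proteins, fell by -1.01 (SE 0.17, adjusted p = 0.0123 by edgeR), a call lost without untreated passage 5 (0.0900). Between groups, none of the 19 passed in Rspo1-positive against untreated cells (4 were lower with the block). In Rspo1-negative against untreated cells 3 were lower, led by Rora (-1.53) and Clock (-1.26), which the offset for GC content and length brought to -0.52 (adjusted p = 0.0894) and -0.28 (adjusted p = 0.247). Between the Rspo1 gates 2 were higher and 1 lower (3 and 6 with the block), and there too the values of Clock and Rora ended with the offset, at 0.26 (adjusted p = 0.252) and -0.31 (adjusted p = 0.273), the latter with its direction turned.

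**Figure D5:**
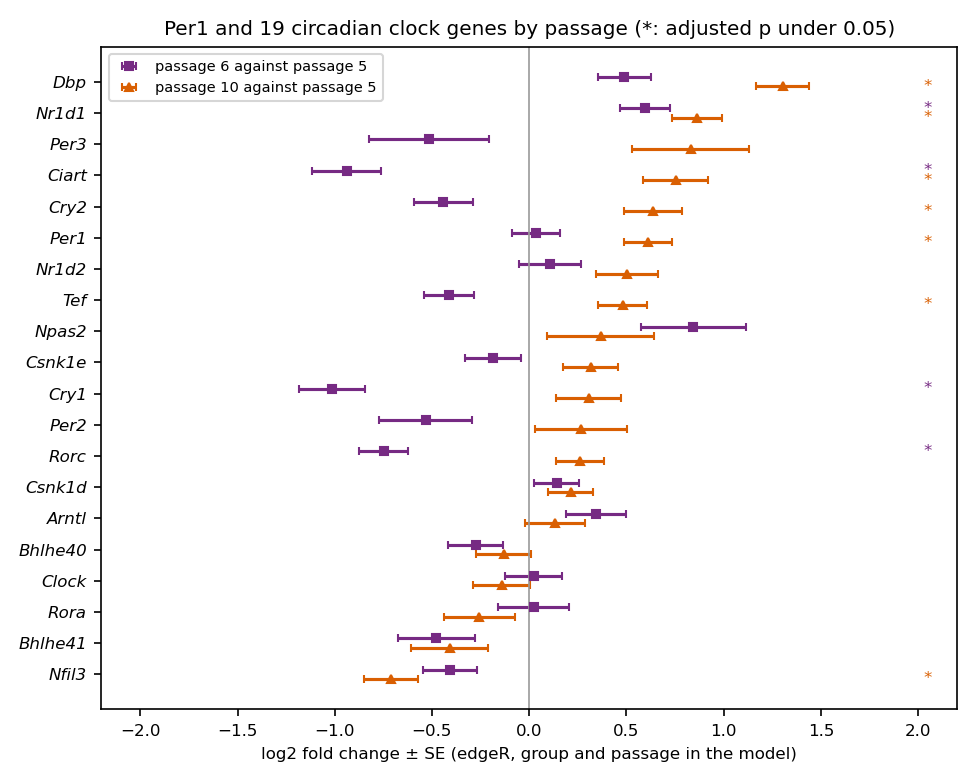
Log2 fold change (horizontal axis, edgeR with group and passage in the model, with bars of 1 SE) of Per1 and 19 other clock genes, for passage 6 (purple squares) and passage 10 (orange triangles) against passage 5, ordered by the second. An asterisk marks an adjusted p under 0.05, and Dbp at 1.30 and Nfil3 at -0.71 are the ends of the order.

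Of 35 other tested genes named in textbooks as glucocorticoid targets, 1 was called in Rspo1-positive against untreated cells (3 higher and 8 lower with the block). It was Gpt, alanine aminotransferase, at 28.01 ± 4.61 CPM in the untreated group and 12.8 ± 1.30 CPM in Rspo1-positive cells (SD, n = 3), lower by -1.13 (SE 0.17, adjusted p = 0.00309 by edgeR). The Rspo1-negative against untreated comparison gave 2 higher and 4 lower of the 35, beside 21.9% of all genes (4 and 10 with the block, beside 35.5%). The factor Cebpd was higher by 1.36 (SE 0.21, adjusted p = 0.00251) and the repressor Bcl6 lower by -0.75 (SE 0.16, adjusted p = 0.0106). Between the Rspo1 gates 2 were higher and 5 lower (4 and 12 with the block).

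With passage the same 35 genes gave 3 higher and 2 lower calls at passage 6, and 3 higher and 10 lower at passage 10. At passage 10 the cell cycle inhibitor Cdkn1a fell from 234 ± 50.02 to 65.7 ± 13.3 CPM (SD, n = 3), by -1.83 (SE 0.14, adjusted p = 0.000273 by edgeR). Klf15, a zinc finger factor of amino acid metabolism, fell by -1.81 (SE 0.19) and Pdk4, which spares glucose, by -1.58 (SE 0.21). Orm1, an acute-phase plasma protein gene that glucocorticoids induce in hepatocytes, rose by 2.64 (SE 0.25) from 1.10 ± 0.384 to 6.82 ± 1.74 CPM. These 4 calls held in all 9 fits without 1 library. The list's median was -0.22, against 0.01 for all genes tested, and its members went in both directions.

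The receptor machinery list held 23 tested genes: receptors, chaperones, co-regulators and the drug pumps that export dexamethasone. None was called in Rspo1-positive against untreated cells (2 lower with the block). In Rspo1-negative against untreated cells 1 was higher and 9 lower, beside 21.9% of all genes (2 and 13 with the block, beside 35.5%). In Rspo1-positive against Rspo1-negative cells 7 were higher and 2 lower, beside 24.3% (10 and 3 with the block, beside 38.9%). Ep300, a histone acetyltransferase and receptor co-activator, was at 202 ± 42.9 CPM in the untreated group, 87.0 ± 25.0 in Rspo1-negative and 178 ± 10.9 in Rspo1-positive cells (SD, n = 3). It was lower by -1.22 in Rspo1-negative against untreated cells (adjusted p = 0.00385 by edgeR) and higher by 1.03 in Rspo1-positive against Rspo1-negative cells (adjusted p = 0.00788, and 0.68 with the offset, adjusted p = 0.0206). Ppid, an Hsp90 partner, was higher by 1.13 in the latter comparison (adjusted p = 0.00288), or by 0.55 with the offset (adjusted p = 0.0456).

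At passage 10, 7 of the 23 were lower and none higher. Abcb1b, a P-glycoprotein pump that exports dexamethasone, fell from 19.3 ± 3.93 CPM at passage 5 to 7.90 ± 1.72 at passage 6 and 5.79 ± 0.443 at passage 10 (SD, n = 3). The log2 fold changes were -1.29 (SE 0.17, adjusted p = 0.00391 by edgeR) and -1.72 (SE 0.18, adjusted p = 0.000480). Hsp90aa1, an Hsp90 gene, fell by -0.95 (SE 0.15, adjusted p = 0.00398) at passage 10. Nr3c1 itself was at -0.35 (SE 0.15, adjusted p = 0.163).

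Sgk1, Dusp1 and Per1 respond to stress and growth factors as well, so genes of the response to tissue dissociation were read beside them. Of 26 such genes, none rose and 7 fell from passage 5 to 6, beside 1.33% of all genes lower. The immediate early factor Egr1 fell from 146 ± 125 to 28.4 ± 30.1 CPM (SD, n = 3), by -2.59 (SE 0.22, adjusted p = 0.000578 by edgeR), and Fos fell by -1.49 (SE 0.14, adjusted p = 0.00133). At passage 10, 2 rose and 11 fell, beside 9.07% of all genes called, among them Egr1 by -1.41 (SE 0.21), the heat shock gene Hsph1 by -1.31 (SE 0.12) and the growth inhibitor Btg2 by -1.30 (SE 0.14). Between groups the calls were 2 higher and 2 lower in Rspo1-positive against untreated cells (12 and 4 with the block), 5 and 2 between the Rspo1 gates (9 and 4), and 2 and 2 in Rspo1-negative against untreated cells (4 and 3). The part of these genes in the values of Sgk1 and Dusp1 was not tested.

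For the metallothioneins, 15 tested genes of metal handling and oxidative stress were read. At passage 10, 1 rose and 1 fell. The zinc exporter Slc30a1, a target of Mtf1 like the metallothioneins, rose by 0.98 (SE 0.13, adjusted p = 0.00202 by edgeR). Its level went from 18.1 ± 7.01 to 34.8 ± 9.49 CPM (SD, n = 3). The part of zinc or Mtf1 in the values of Mt1 and Mt2 was not tested. Hmox1, heme oxygenase, fell by -0.79 (adjusted p = 0.00624), a call lost without Rspo1-negative passage 5 (0.0521). At passage 6, 1 gene fell and none rose. Gclc, a glutathione synthesis subunit, was at 586 ± 54.1 CPM in the untreated group, 291 ± 6.94 in Rspo1-negative and 291 ± 22.1 in Rspo1-positive cells (SD, n = 3). It was lower by -1.01 in both comparisons with the untreated group (adjusted p = 0.00135 and 0.00197). The list gave 2 lower calls in Rspo1-positive against untreated cells (4 with the block), 3 lower in Rspo1-negative against untreated cells (4 lower and 3 higher with the block) and 2 higher and 3 lower between the Rspo1 gates (2 and 5 with the block).

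Among 21 tested relatives of the members, such as other Klf, Dusp, Sgk, Fkbp and Tsc22d genes, none was called in Rspo1-positive against untreated cells (4 lower with the block). There were 1 higher and 8 lower in Rspo1-negative against untreated cells and 4 higher and 3 lower between the Rspo1 gates (6 and 3 with the block). Klf6, a relative of Klf9, was lower by -1.07 in Rspo1-negative against untreated cells (SE 0.16, adjusted p = 0.00212 by edgeR), or by -0.54 with the offset (adjusted p = 0.0435). Sgk3 was higher by 0.93 between the gates, and this ended with the offset (0.20, adjusted p = 0.572). None was called at passage 6, and 1 fell at passage 10.

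Likeness of pattern over the 9 libraries was measured as Pearson's r of log2 CPM against 11652 genes that were no members. For Fkbp5 the most alike were Gnaz (r = 0.984), Fhl1 (0.977) and Tff1 (0.975). For Tsc22d3 they were Pip4k2c (0.966), Akr1c13 (0.964) and B3gnt3 (0.961), and for Per1 they were Agrn (0.979), Acox3 (0.978) and Vps37b (0.971). Among the members the highest r was 0.94, between Mt1 and Mt2, followed by 0.81 between Fkbp5 and Tsc22d3, and the lowest was -0.74, between Per1 and Zbtb16. These are descriptions over libraries that share passages and groups.

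The authors' deposited table of DESeq2 results held 9 of the 10 genes among 15807. Of the 9, the authors' deposited table gave 4 an adjusted p under 0.05 in Rspo1-positive against untreated cells, all lower. There were 7 between the Rspo1 gates, 6 of them lower, and 4 in Rspo1-negative against untreated cells, 3 of them lower. The share of all 15807 genes under that threshold was not counted here. These counts therefore have no background beside them and are not read as particular to the members. In the authors' deposited table Sgk1 in Rspo1-positive against untreated cells is at -1.12 and Klf9 in Rspo1-negative against untreated cells is at -0.86.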

How the data were processed

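RNA of sorted organoid cells was sequenced as single-end 75 bp reads from 100 ng of total RNA per library, per the labels' protocols. The submitters' processing notes name Trimmomatic 0.35, FastQC 0.11.2, STAR 2.5.1b, featureCounts, DESeq2 and the build GRCm38. The strand setting and annotation are not given in the sources used here. Each library's deposited file lists a raw count and an FPKM for every gene, per the file headers. The authors' tables hold log2 fold changes, standard errors, Wald statistics (a score), p-values and adjusted p-values.

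Counts were analysed with edgeR 4.0.16 in R 4.3.3: filterByExpr (minimum count 10, minimum total 15), TMM, quasi-likelihood F-test, Benjamini-Hochberg adjustment over 17011 genes, threshold 0.05. All 9 libraries entered a model of group, and for passages a model of group and passage. The SE is the log2 fold change divided by the square root of F. FPKM served for levels between genes and entered no test. Gene positions, GC content and length are from GENCODE M21 (GRCm38), where 17001 genes tested had values. No gene was fitted on imputed data. The method was tested on simulated data. The simulated counts held no passage effect and no GC or length bias, so that test does not bear on the block or the offset.

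Replicate numbers stand for passages, per the labels, and columns of the third replicate carry the number 4 in the files. After removal of group means, libraries of the same passage correlated at 0.123 to 0.573 (9 pairs) and of different passages at -0.476 to 0.0826 (18 pairs), so they pair the libraries. Replicates of a group differed beyond counting noise, with a chi-square per gene of 54.4 to 572.

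Alternatives were DESeq2 1.42.0, upper-quartile scaling, no filter, an offset for GC content and length (splines with 5 degrees of freedom), the replicate block, block and offset, only the 6 libraries compared, and leaving out each library. Members and gene lists were chosen with earlier results of these data known. The naming rule took the members, Nr3c1, Nr3c2, Hsd11b1 and Hsd11b2, and from each of the 6 pathway lists and comparisons up to 4 called genes with the largest change. Of these only a part is printed, chosen after the values were seen and leaning to genes that kept their call when a library was left out. It also took the 3 non-member genes of highest Pearson r with Tsc22d3, Fkbp5 and Per1 (mean log2 CPM above 2, prior count 2). Of the list genes, 8 had no row of that name and 8 stood in more than 1 list.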

Additional observations from a re-analysis of the deposited data

How the results depend on the processing

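No setting turned the direction of a change that edgeR called in a member with all 9 libraries and no added block or offset. Calls made only with the block or the offset are not covered: Mt2 in Rspo1-positive against untreated cells (called lower with the block) and Dusp1 between the gates (called higher with block and offset, 0.39) both crossed 0 without the block when 1 library was left out. In Rspo1-positive against untreated cells, where 886 genes and 2 members were called, DESeq2 called 1506 genes, no filter 1446, the replicate block 2247 (4 members) and the block with the GC and length offset 2751 (4 members). Upper-quartile scaling called 896 genes and 1 member there. The fit of only the 6 libraries called 683 of 16688 genes and 0 members, and DESeq2 called 3 members. Between the Rspo1 gates (4141 genes) the offset called 1436 genes and 1 member, the block 6624 and 5, and both together 4002 and 6. In Rspo1-negative against untreated cells (3724 genes) the offset called 1329, the 6 libraries 2299 and the block 6039 (4 members). DESeq2 called 4714 genes and 2 members there, no filter 3834 of 31128 genes and 2, and block with offset 3550 and 3. At passage 6 (423 genes) DESeq2 called 851 and no filter 1193 (5 members), and at passage 10 (1543 genes) no filter called 2784.

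The share of calls that were higher moved from 36.5% to 49.5% with upper-quartile scaling, 50.6% with the offset and 49.5% with block and offset in Rspo1-negative against untreated cells. Between the gates it moved from 59.8% to 40.7% and 40.9% with the offset without and with the block, and in Rspo1-positive against untreated cells from 59.0% to 48.7% with the block and 40.2% with block and offset.

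Leaving out each library gave 390 to 899 genes and 0 to 2 members in Rspo1-positive against untreated cells, 2061 to 4068 and 1 to 2 between the gates, 1800 to 3772 and 1 to 2 in Rspo1-negative against untreated cells, 105 to 846 genes at passage 6, and 405 to 3594 genes and 3 to 7 members at passage 10. Some uncalled log2 fold changes crossed 0. In Rspo1-positive against untreated cells Zbtb16 ran from -0.69 to 0.46, Dusp1 from -0.062 to 0.61, Mt1 from -0.57 to 0.21 and Mt2 from -1.32 to 0.15. Between the gates Zbtb16 ran from -0.45 to 0.95, Dusp1 from -0.19 to 0.46 and Axin2 from -0.11 to 0.53. In Rspo1-negative against untreated cells Tsc22d3 ran from -0.29 to 0.10, Per1 from -0.16 to 0.31, Zbtb16 from -1.17 to 0.42, Dusp1 from -0.078 to 0.41 and Mt2 from -0.47 to 0.78. At passage 6 Per1 ran from -0.056 to 0.14, Klf9 from -0.15 to 0.16, Nr3c1 from -0.18 to 0.12 and Nr3c2 from -0.10 to 0.21, and at passage 10 Klf9 ran from -0.17 to 0.0029.

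Other reversals came with the offset, given first alone and then with the block. Between the gates Nr3c2 was at -0.20 and -0.19 and Rora at -0.31 and -0.31, and Zbtb16 was at -0.0064 with upper-quartile scaling. In Rspo1-negative against untreated cells Per1 was at -0.092 and -0.084, Dusp1 at -0.15 and -0.14, Mt2 at -0.26 and -0.10, Btg1 at 0.13 and 0.13, and Slc7a11 at 0.042 and 0.023. At passage 6 the offset put Per1 at -0.041 and Klf9 at -0.0056, and no filter put Klf9 at -0.0014. The cause was not tested.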
